A study of Homo sapiens with 6 samples.

Results

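The miRNAs encoded within the human HOX gene clusters were examined in Huh7 cells, a human hepatoma cell line. The 7 members were taken by name from the 2588 mature miRNAs of the expression table, as miRNAs whose genes lie in a HOX cluster: hsa-miR-10a-5p, hsa-miR-10a-3p, hsa-miR-10b-5p, hsa-miR-10b-3p, hsa-miR-196a-5p, hsa-miR-196b-5p and hsa-miR-615-3p. The rule uses names and no measured value, and the prefix hsa, for human, is left out from here on. The study asked how raising hsa_circ_0098181, a circular RNA from the SOX5 gene, changes the miRNAs of hepatoma cells. Huh7 cells received either the plasmid that overexpresses hsa_circ_0098181 (3 samples) or a control plasmid (3 samples), in both cases by Lipofectamine 2000, and total RNA was taken 48 h later. The plasmid was transfected transiently, both groups derive from the same single cell line, and no source used here says whether the 3 samples of a group were separate cultures, so p-values measure the spread between these samples, which may be technical. The circular RNA itself is not a row of the miRNA table, and whether its level rose was not analysed here.

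HOX genes are transcription factors that give cells their position along the body axis, and they lie in clusters whose order follows the order of their expression. A few miRNA genes are embedded between and within them and are often expressed with their neighbours. A miRNA binds messenger RNAs mainly through its seed, the bases near its 5′ end, and lowers their stability and translation. miR-196 is the best known example of a HOX-cluster miRNA that targets HOX messenger RNAs, miR-10b is known for its link to invasion in breast cancer, and the adult liver is otherwise dominated by miR-122.

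In RefSeq (GRCh38.p14) the 4 HOX clusters held 39 HOX genes and 8 miRNA genes. MIR196B lay in HOXA on chromosome 7 (27169480 to 27169563, minus strand), between HOXA9 and HOXA10. In GENCODE release 29, whose coordinates for it were the same, it fell in an exon of 1 HOXA9 transcript and in an intron of 2 others. MIR10A lay in HOXB on chromosome 17 (48579838 to 48579947, minus strand), in introns of 6 HOXB3 transcripts and in an exon of 1 HOXB4 transcript. MIR196A1 lay in the same cluster (48632490 to 48632559, minus strand), between HOXB9 and HOXB13, in an intron of a HOXB7 transcript. HOXC on chromosome 12 held MIR196A2 (53991738 to 53991847, plus strand), between HOXC10 and HOXC9 in an intron of a HOXC6 transcript, and MIR615 (54033950 to 54034045, plus strand), in introns of HOXC5 and HOXC4. MIR10B lay in HOXD on chromosome 2 (176150303 to 176150412, plus strand), between HOXD8 and HOXD4, in an intron of a HOXD3 transcript. The remaining pair, MIR3185 in HOXB and MIR7704 in HOXD, gave no member.

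The mature sequences show which members can be confused with one another and which share a seed. Sequences were found in RefSeq for 6 of the 7 members. None was found for miR-10b-5p, so it could not be compared with miR-10a-5p here. They are written 5′ to 3′ with the seed, bases 2 to 8, in capitals.
miR-196a-5p: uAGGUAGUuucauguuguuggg
miR-196b-5p: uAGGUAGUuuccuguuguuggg
miR-615-3p: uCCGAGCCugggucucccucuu
miR-10a-5p: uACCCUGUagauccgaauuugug
miR-10a-3p: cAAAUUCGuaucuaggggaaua
miR-10b-3p: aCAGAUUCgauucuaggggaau
miR-196a-5p and miR-196b-5p, both of 22 bases, differed at 1 position only, A12C counted from the 5′ end with the base of miR-196a-5p first. Their seed, AGGUAGU, was found in these 2 alone of the 2281 miRNAs of the table with a RefSeq sequence. MIR196A1 and MIR196A2 yield the same miR-196a-5p, so its count cannot be divided between HOXB and HOXC. The 3p arms differ, however, and miR-196a-3p of the table carries the sequence of MIR196A2 only.
miR-196a-3p: cGGCAACAagaaacugccugag
miR-196b-3p: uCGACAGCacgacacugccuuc
miR-615-5p: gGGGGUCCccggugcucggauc
Each of these is the second, usually degraded arm of a precursor whose main product is a member. The arm miR-196a-1-3p, from MIR196A1, is not among the miRNAs of the expression table, so no count particular to MIR196A1 was available.

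The best known target of miR-196 is HOXB8, a HOX gene near MIR196A1, whose messenger RNA it directs to be cut. The matching site was located in GENCODE release 29 (GRCh38) as the stretch of a HOX messenger RNA with the most standard pairs over the full length of miR-196a-5p, and it is shown with the bases that face the seed in capitals.
HOXB8 site: cccaacaacaugaaACUGCCUa
The site lies in the 3′UTR of the HOXB8 transcript at positions 1378 to 1399 of the transcript, which is chr17:48612770-48612791 on the minus strand. Of the 22 bases of miR-196a-5p, 21 formed standard pairs and 1 a G:U pair, with 0 mismatches. miR-196b-5p had 1 mismatch there, at the base in which it differs from miR-196a-5p. By standard pairs HOXA7 had the next best site, with 15, beside 2 G:U pairs and 5 mismatches. HOXD8, with 14 standard and 4 G:U pairs, and HOXA5, with 12 and 6, had 4 mismatches each. Counted on miR-196a-5p, the mismatches of HOXA7 lay at bases 11, 13, 15, 16 and 18, outside the seed. Those of HOXD8 lay at 2, 5, 8 and 11 and those of HOXA5 at 4, 6, 16 and 18, so both sites had mismatches within the seed. No messenger RNA was measured in these libraries, so the site is given as sequence context alone.

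The libraries held 7144798 to 10786295 counts (median 8379124), where a count is a read assigned to a mature miRNA. The deposited TPM value is the same count scaled to the total of its sample, as CPM, with no correction for length. The members with a sequence here were of nearly equal length, 22 or 23 bases. Whether the libraries captured different miRNAs equally was not tested, so ratios between miRNAs compare reads and not molecules. Hepatocyte markers were abundant: the 4 chosen (miR-122-5p, miR-192-5p, miR-194-5p and miR-148a-3p) summed to 422224.2 to 434246.8 TPM in the hsa_circ_0098181 group and 403377.1 to 435127.1 TPM in the control group. Of 6 blood cell markers 3 were under 1 TPM, and the list summed to 13.3 to 14.8 TPM against 17.2 to 19.5 TPM. The 2 endothelial markers (miR-126-3p and miR-126-5p) summed to 4178.2 to 4340.8 TPM against 3811.3 to 4291.6 TPM, the 3 of stroma and smooth muscle to 114.7 to 122.8 TPM against 122.7 to 132.4 TPM, the 3 of striated muscle to 1.45 to 2.24 TPM against 1.68 to 2.23 TPM, and the 2 of neurons to 115.0 to 131.0 TPM against 98.6 to 148.6 TPM. No marker was at 0 in all samples. Control replicate 3 stood apart from the rest of its group. Its median absolute difference was 0.229 and 0.22 (log2) from the other two control samples, which differed from each other by 0.0767. From hsa_circ_0098181 replicates 1, 2 and 3 it differed by 0.15, 0.221 and 0.192, so it was not nearer to its own group than to replicates 1 and 3 of the other. Control replicates 1 and 2 lay 0.141 to 0.191 from the same samples. Values without control replicate 3 are therefore given beside the group comparisons, to show how far they depend on it and not as better estimates.

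The HOX-cluster miRNAs ranged from a mean of 12112.0 TPM to 0.0401 TPM in Huh7 cells, and 1 of them, miR-196a-5p, supplied nearly all of their reads. Together the 7 members took 1.23% ± 0.0646 of the counts in the hsa_circ_0098181 group and 1.38% ± 0.0839 in the control group (SD, n = 3 each). Between 92.3% and 93.4% of these counts were miR-196a-5p in each sample. By mean TPM over the 6 samples it ranked 16 of 2588, miR-196b-5p ranked 69, miR-615-3p 151 and miR-10b-5p 401, while miR-10a-5p, miR-10b-3p and miR-10a-3p ranked 800, 858 and 1149.

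**Figure D1:**
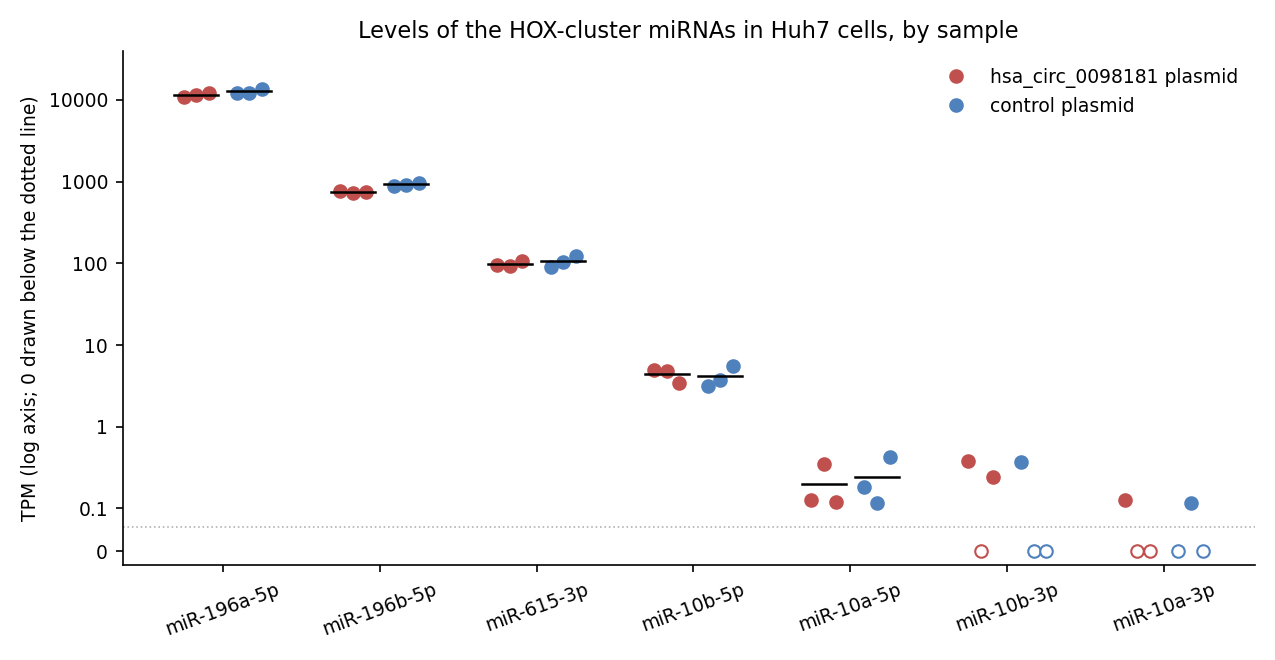
Each point is the TPM of a member in 1 sample on a log axis (open points at the bottom are 0), with the hsa_circ_0098181 group in red, the control group in blue, and the group mean as a bar where no sample was at 0. The steps from miR-196a-5p to miR-196b-5p, miR-615-3p, miR-10b-5p and miR-10a-5p had no overlap, whereas the 3 lowest members overlapped one another.

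miR-196a-5p, the guide strand encoded in both HOXB and HOXC, stood at 10826.3, 11476.9 and 12126.3 TPM in hsa_circ_0098181 replicates 1 to 3 and at 12325.2, 12262.9 and 13654.5 TPM in control replicates 1 to 3. It was thus among the abundant miRNAs of these cells, although miR-122-5p was 26.6 times as high (22.4 to 29.7 by sample). miR-196b-5p, the guide strand made from HOXA, stood at 770.1, 724.3 and 753.0 TPM in the hsa_circ_0098181 group and at 888.5, 919.4 and 967.8 TPM in the control group. miR-196a-5p was 14.5 times as high as miR-196b-5p by mean TPM, and in every sample the ratio lay between 13.3 and 16.1. Since 1 base separates them and the handling of reads that fit both is not given in the sources used here, the division of reads between them is uncertain to that extent.

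miR-615-3p, from an intron of HOXC5, stood at 95.6, 91.7 and 105.7 TPM in the hsa_circ_0098181 group and at 90.9, 104.0 and 123.3 TPM in the control group. miR-196b-5p was 8.22 times as high (7.13 to 9.78 by sample). MIR615 and MIR196A2 lie in the same HOX cluster, on the same strand.

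The miR-10 members were low. miR-10b-5p, the guide strand from HOXD, stood at 4.89, 4.84 and 3.38 TPM in the hsa_circ_0098181 group and at 3.15, 3.69 and 5.6 TPM in the control group, which are 39, 41 and 28 counts against 34, 32 and 40 counts. miR-615-3p exceeded it 23.9 times (19.0 to 31.3 by sample) and miR-196a-5p exceeded it 2844.8 times. miR-10a-5p, the guide strand from HOXB, had only 11 counts in the 6 samples together, with 1, 3 and 1 in the hsa_circ_0098181 group and 2, 1 and 3 in the control group. All 6 values are at or under 3 counts, which corresponds to 0.278 to 0.42 TPM by library, so its level was at the limit of detection at this depth. Over all samples it made up 4.89% of the 225 counts of the miR-10 guide strands (exact Clopper-Pearson 95% interval 2.47 to 8.58, for counting error only). The handling of reads that fit both miR-10 guide strands is not given in the sources used here, so this division is uncertain too. The 3p arms were lower or as low. miR-10b-3p had 3, 0 and 2 counts against 4, 0 and 0, and miR-10a-3p had 1, 0 and 0 against 0, 1 and 0. Levels of miR-10a-5p, miR-10b-3p and miR-10a-3p could not be ordered at this depth.

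The products of the other HOX-cluster miRNA genes, miR-3185 and miR-7704, had 0 counts in all 6 samples, which allows up to 0.42 TPM in the shallowest library.

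The second arms gave a view of single precursors. miR-196a-3p, of MIR196A2, had 288 counts in all and stood at 6.39, 5.43 and 6.39 TPM against 5.56, 5.88 and 3.78 TPM. Reads with the sequence of an arm of the HOXC precursor were thus present in all 6 samples. They were 0.0464% of the counts of miR-196a-3p and miR-196a-5p together (exact Clopper-Pearson 95% interval 0.0412 to 0.052), where the 5p count includes both loci. miR-196b-3p had 91 counts, or 0.211% of its pair (0.17 to 0.259), and ranged from 0.603 to 3.07 TPM. miR-615-5p had 53 counts, or 1.01% of its pair (0.76 to 1.32). miR-10b-3p, with 9 counts, was 4.04% of its pair (1.86 to 7.52). For MIR196B, MIR615 and MIR10B the arm with more counts was thus the 5p, 3p and 5p arm. For MIR196A2 alone the share cannot be given, and for MIR10A the 2 counts against 11 left a wide interval (1.92% to 45.4% for the 3p arm).

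The next question was whether the members differed between Huh7 cells with the hsa_circ_0098181 plasmid and those with the control plasmid. The test was the quasi-likelihood test of edgeR on counts with TMM factors, which correct for the composition of the library, and with Benjamini-Hochberg adjustment over all 552 miRNAs that passed the filter on low counts. Of the 7 members 4 passed it (miR-196a-5p, miR-196b-5p, miR-615-3p and miR-10b-5p), and the 3 lowest did not. None of the 4 passed an adjusted p of 0.05 in edgeR, where 0.0% of all 552 miRNAs did. At an unadjusted p under 0.05 edgeR called 1 of the 4, miR-196b-5p, against 9.06% of all miRNAs tested (50 of 552). The TMM-normalized values of the groups did not overlap for 1 of the 4, again miR-196b-5p, against 15.4% of all miRNAs (85 of 552). The median log2 fold change of the 4 was -0.015, beside 0.004 over all miRNAs tested. In these bulk samples a change within each cell and a change in the share of cells that took up a plasmid cannot be told apart.

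miR-196b-5p was lower in the hsa_circ_0098181 group before correction for the number of miRNAs and did not pass after it. Its TMM-normalized CPM was 773.0, 787.0 and 778.8 in the hsa_circ_0098181 group and 884.6, 891.3 and 889.9 in the control group. All 3 control samples lay above all 3 samples with hsa_circ_0098181, and the means were 779.6 ± 6.99 and 888.6 ± 3.54 CPM (SD, n = 3 each). The log2 fold change was -0.19 ± 0.084 (SE, 95% interval -0.37 to -0.01), or 0.877-fold, with an unadjusted p of 0.0427 and an adjusted p of 0.524 in edgeR's quasi-likelihood test. Over the alternative settings the adjusted p ranged from 0.0691 to 0.847 in edgeR, limma and DESeq2. The unadjusted p was not under 0.05 in 7 of 15 alternatives, among them 5 of the 6 in which 1 sample was left out. In the sixth, without control replicate 3, the log2 fold change was -0.21, with an unadjusted p of 0.00776 and an adjusted p of 0.0691 in edgeR, and 9.91% of the 565 miRNAs then tested were called (56). The spread within each group was smaller than the 9.92 and 9.91 CPM that counting error alone gives at these counts, so the SDs understate the error. An exact two-sided permutation test of the normalized values gave p = 0.1, which is the smallest that 3 against 3 samples allow.

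miR-196a-5p, which shares the seed of miR-196b-5p, did not differ between the groups beyond the spread of the samples. Its TMM-normalized CPM was 10868, 12470 and 12541 in the hsa_circ_0098181 group and 12271, 11888 and 12555 in the control group. The groups overlapped, with the lowest value in hsa_circ_0098181 replicate 1. The log2 fold change was -0.033 ± 0.076 (SE, 95% interval -0.2 to 0.13), with an adjusted p of 0.871 in edgeR, and it was -0.034 without control replicate 3. The interval corresponds to 0.872-fold to 1.09-fold. On the TPM scale, which has no correction for composition, the groups did not overlap (11476.5 ± 650.0 against 12747.5 ± 786.1 TPM, SD, n = 3 each). The share of all miRNAs without overlap in TPM was not computed, so how common this is on that scale is not known. With library size alone the median log2 fold change of all miRNAs tested also shifted, to -0.112.

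Because a ratio of counts within a sample needs no library size, the 2 miR-196 guide strands were also set against each other. The ratio of miR-196a-5p to miR-196b-5p was 14.1, 15.8 and 16.1 in the hsa_circ_0098181 group and 13.9, 13.3 and 14.1 in the control group. hsa_circ_0098181 replicate 1 fell among the control samples, whereas the other two lay above them. The difference in log2 ratio was 0.15, between 3.94 ± 0.107 and 3.78 ± 0.0416 (SD, n = 3 each), with p = 0.2 in an exact two-sided permutation test in which 0.1 is the smallest possible. It is 1 of 4 ratios tested, without adjustment over them. miR-196b-5p accordingly made up 6.14% ± 0.435 of the miR-196 guide counts with hsa_circ_0098181 and 6.77% ± 0.183 in the control group. When both guide strands were summed to a single row before the fit, the log2 fold change was -0.044 with an adjusted p of 0.816 in edgeR.

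**Figure D2:**
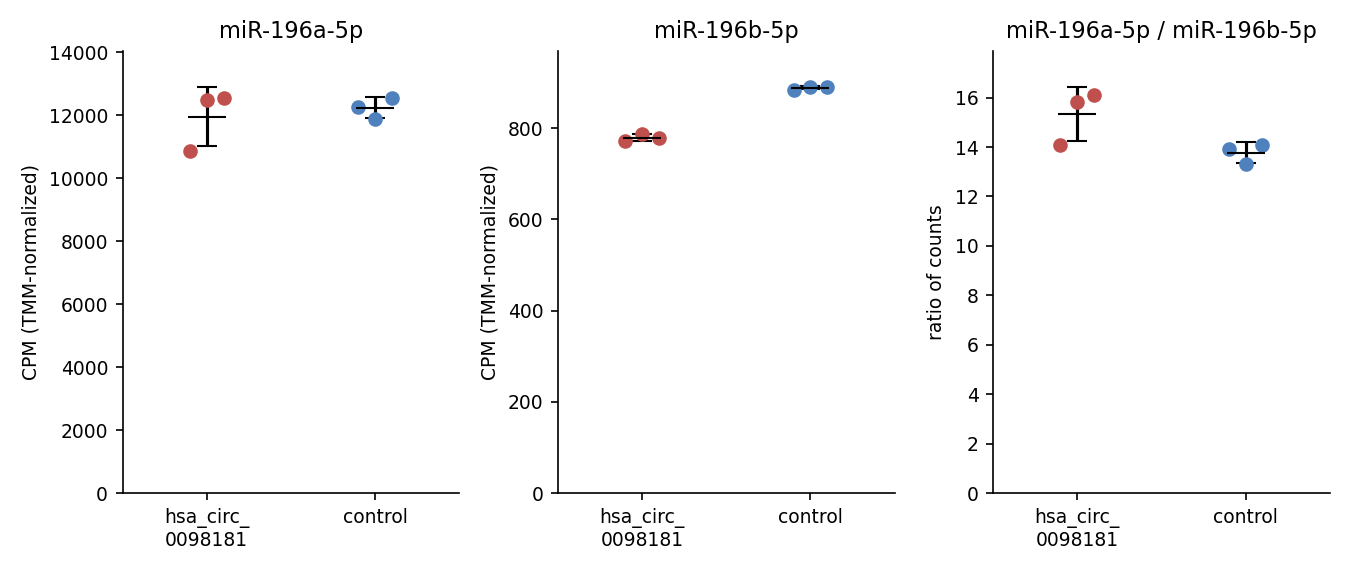
Points are samples, wide bars group means and error bars SDs (n = 3 each) for the TMM-normalized CPM of miR-196a-5p and miR-196b-5p and for the ratio of their counts, on axes that start at 0. The groups overlap for miR-196a-5p and for the ratio, and for miR-196b-5p the 3 control samples (884.6 to 891.3) lie above the 3 samples with hsa_circ_0098181 (773.0 to 787.0).

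miR-615-3p and miR-10b-5p overlapped between the groups. For miR-615-3p the TMM-normalized CPM was 96.0, 99.7 and 109.3 with hsa_circ_0098181 and 90.5, 100.8 and 113.4 in the control group, so that the lowest and the highest sample were both controls. Its log2 fold change was 0.0031 ± 0.12 (SE, 95% interval -0.25 to 0.25) with an adjusted p of 0.992 in edgeR, and its sign changed with the scaling. For miR-10b-5p the CPM was 4.91, 5.26 and 3.49 with hsa_circ_0098181 and 3.14, 3.58 and 5.15 in the control group, with 1 high control and 1 low sample with hsa_circ_0098181. Its log2 fold change was 0.23 ± 0.26 (SE, 95% interval -0.33 to 0.79) with an adjusted p of 0.772 in edgeR. Counting error alone gives an SD of 0.756 and 0.661 CPM in the groups, against the observed 0.935 and 1.06, and the interval runs from 0.793-fold to 1.72-fold. Without control replicate 3 the log2 fold change of miR-615-3p was 0.07 and that of miR-10b-5p was 0.42, with adjusted p of 0.745 and 0.438 in edgeR.

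No fold change is given for miR-10a-5p, miR-10a-3p and miR-10b-3p. Their counts summed to 5 against 6, 1 against 1 and 5 against 4 in the groups, and a difference was not detectable at this depth. With no filter on low counts, edgeR called 0 of all 7 members after adjustment, beside 6 of the 1366 miRNAs then tested. The log2 ratio of miR-10a-5p to miR-10b-5p, with 0.5 added to each count, was -4.18 ± 0.579 with hsa_circ_0098181 and -3.92 ± 0.467 in the control group (SD, n = 3 each, exact permutation p = 0.6). The log2 ratio of miR-10b-3p to miR-10b-5p was -4.46 ± 1.66 against -5.1 ± 1.88 (SD, n = 3 each, exact permutation p = 1.0). For the arms of MIR10A, each at or under 3 counts in every sample, the log2 ratio of miR-10a-3p to miR-10a-5p was -1.46 ± 1.41 against -1.71 ± 1.5 (SD, n = 3 each, exact permutation p = 1.0). None of these 3 differences exceeded the spread between samples.

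**Figure D3:**
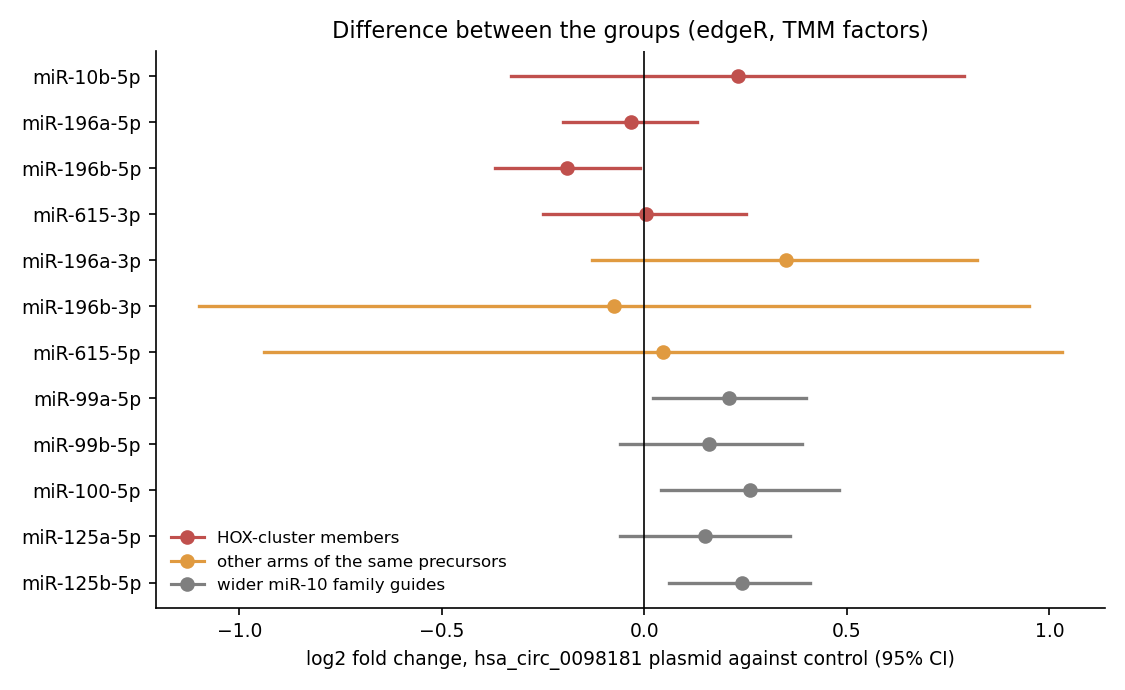
Points are log2 fold changes of the hsa_circ_0098181 group against the control group from edgeR and lines are 95% intervals, for the 4 members tested, the second arms of their precursors and the miR-10 family outside the HOX clusters. Of the members, the interval of miR-196b-5p (-0.37 to -0.01) alone does not include 0 and those of miR-196a-5p, miR-615-3p and miR-10b-5p do.

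Among the second arms 0 of 3 passed edgeR at an unadjusted p under 0.05. miR-196a-3p had a log2 fold change of 0.35 ± 0.22 (SE, adjusted p = 0.615 in edgeR), and its TMM-normalized CPM was 6.42, 5.9 and 6.61 with hsa_circ_0098181 against 5.54, 5.7 and 3.47. The groups did not overlap on this scale but did so in TPM, and without control replicate 3, its lowest sample, the log2 fold change was 0.15. miR-196b-3p and miR-615-5p had log2 fold changes of -0.074 ± 0.47 and 0.045 ± 0.46 (SE). Their 95% intervals, -1.1 to 0.95 and -0.94 to 1.03, were the widest of the miRNAs named.

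The miR-10 family extends beyond the HOX clusters to miR-99, miR-100 and miR-125, whose guide strands resemble miR-10 in sequence and which are counted here as its nearest relatives. miR-99 and miR-100 are known to target mTOR, a kinase that drives cell growth, and miR-125 is the human counterpart of lin-4, the founding miRNA of the worm. Their sequences show the relation to miR-10a-5p above, with the seed in capitals.
miR-99a-5p: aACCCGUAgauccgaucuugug
miR-100-5p: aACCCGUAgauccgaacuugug
miR-99b-5p: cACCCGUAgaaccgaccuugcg
miR-125a-5p: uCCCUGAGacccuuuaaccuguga
miR-125b-5p: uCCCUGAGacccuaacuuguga
In contrast to the HOX-cluster miR-10 members these were abundant. By mean TPM miR-125b-5p was 1809.2 times as high as miR-10b-5p, miR-99b-5p 387.5 times and miR-100-5p 44.7 times. miR-125b-5p and miR-125a-5p ranked 21 and 24, close to miR-196a-5p.

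All 5 of these relatives had a positive log2 fold change, from 0.15 to 0.26 with a median of 0.208, beside 281 of all 552 miRNAs tested. Their genes share chromosomes 11, 19 and 21, so the 5 may not vary independently. After adjustment 0 of 5 passed the threshold in edgeR. At an unadjusted p under 0.05 edgeR called 3 of the 5, beside the 9.06% of all miRNAs, namely miR-125b-5p (0.24 ± 0.08, SE), miR-100-5p (0.26 ± 0.1) and miR-99a-5p (0.21 ± 0.087). Control replicate 3 moved these calls. Without it, miR-125b-5p, miR-125a-5p and miR-99b-5p rose by 0.25, 0.25 and 0.26 on the log2 scale, with adjusted p of 0.00605, 0.00766 and 0.013 in edgeR, where 9.91% of all miRNAs were called. With library size alone, which shifted the median of all miRNAs to -0.112, the log2 fold changes were 0.031 to 0.15 and edgeR called 0 of the 5 at an unadjusted p under 0.05. The values were 0.12 for miR-125b-5p, 0.15 for miR-100-5p and 0.09 for miR-99a-5p, with adjusted p of 0.574, 0.578 and 0.746 in edgeR. Whether the members and these relatives differed in response was not tested.

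**Figure D4:**
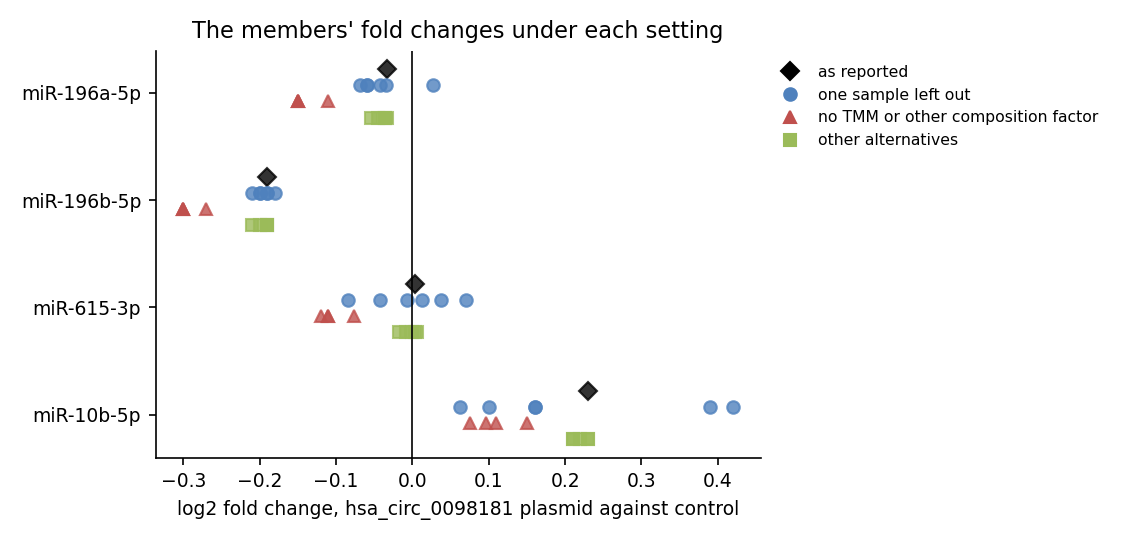
Each point is the log2 fold change of a member under 1 setting, as reported (black) or with 1 sample left out (blue). Red points were scaled by library size, with or without the most abundant miRNA, or by TPM. Green points are the other alternatives. miR-196b-5p stayed negative (-0.3 to -0.18) and miR-10b-5p positive (0.062 to 0.42), whereas miR-615-3p (-0.12 to 0.07) and miR-196a-5p (-0.15 to 0.027) lay on both sides of 0.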

How the data were processed

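The miRNAs of 6 Huh7 samples were sequenced. The authors deposited counts per mature miRNA, without normalization, and TPM values, which equal the CPM recomputed from these counts to within 0.00303. The submitters' processing notes name hg38, TopHat2 2.0.9, TopHat and Bowtie without their roles. The miRNA annotation and the treatment of multiply matching reads are not given in the sources used here, and they would change near-identical miRNAs most.

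Samples were grouped by their titles. Counts were compared with edgeR 4.0.16 in R 4.3.3 (filterByExpr with a minimum count of 10 and a minimum total of 15, TMM factors, group as the only term, two-sided, Benjamini-Hochberg over 552 miRNAs, threshold 0.05). These miRNAs held 99.98% of the counts. Ratios used counts with 0.5 added and exact permutation tests with scipy 1.17.1. Intervals of shares are exact and cover counting error only. No molecular identifiers are named. The test was tried on simulated counts first. Sequences came from RefSeq (GRCh38.p14) and transcripts from GENCODE release 29 (GRCh38). The miRNAs named were the members, the other arms of their precursors, further HOX-cluster miRNAs and the miR-10 family guide strands. Added to these were the 3 miRNAs with the smallest difference in profile from the most abundant member. The members and lists were chosen with earlier results of these data known. Alternatives were DESeq2 1.42.0, limma 3.58.1 on log2 TPM, other scalings and filters, summed paralogs, the replicate number as a block, and leaving out each sample.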

Additional observations from a re-analysis of the deposited data

How the results depend on the processing

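The number of miRNAs called over the whole table, 0 in edgeR as reported (50 at an unadjusted p under 0.05), was 3 with library size alone, 6 with no filter and 3 in limma with 1 added to the TPM. Leaving out 1 sample gave 0 to 56, the 56 of them without control replicate 3. The number of members called was 0 under all 15 alternatives. For single members, 50 fold changes under the alternatives kept their sign and their side of the threshold and 10 changed sign. The log2 fold change of miR-615-3p was -0.12 with library size alone, -0.077 with library size without the most abundant miRNA, -0.018 with no filter, -0.0086 in DESeq2 and -0.11 in limma with 1 or 0.1 added, and -0.084 to 0.07 with 1 sample left out. The medians over all miRNAs moved likewise, to -0.112, -0.075, -0.021 and -0.009 under the first 4 of these settings and to -0.097 and -0.11 in limma, from 0.004. The log2 fold change of miR-196a-5p was -0.068 to 0.027 with 1 sample left out, positive only without hsa_circ_0098181 replicate 1. The log2 ratio of miR-10a-5p to miR-10b-5p differed by -0.56 to 0.011 between the groups with 1 sample left out, that of miR-10b-3p to miR-10b-5p by 0.02 to 1.72 and that of miR-10a-3p to miR-10a-5p by -0.49 to 1.1. The alternatives for the second arms and the wider family were chosen after seeing the data. There, miR-615-5p was -0.064 with library size alone, -0.028 without the most abundant miRNA, -0.045 and -0.084 in limma, and -0.18 to 0.29 with 1 sample left out, and miR-196b-3p was -0.95 to 0.34. The causes of these changes of sign were not tested. The 5 family guides stayed positive (0.031 to 0.31). The deviations of same-numbered samples correlated at -0.208, 0.193 and 0.119. Samples with different numbers were not compared in this way, so these values cannot tell whether same-numbered samples were paired. With the replicate number as a block, 0 miRNAs were called and the log2 fold changes were -0.19 for miR-196b-5p (unadjusted p = 0.051 in edgeR), -0.036 for miR-196a-5p, 0.0057 for miR-615-3p and 0.23 for miR-10b-5p. Paired by number, the 4 ratios differed by -0.26, 0.25, 0.64 and 0.15. Groups of equal size fix these means to those without pairing, so they do not show stability. In the paired exact permutation test the lowest p was 0.25, for the ratio of miR-196a-5p to miR-196b-5p. The unadjusted p of miR-196b-5p in edgeR was 0.094 with upper-quartile factors and 0.06, 0.0711, 0.0812, 0.109 and 0.116 in the 5 leave-outs other than that of control replicate 3. For miR-196b-5p the unadjusted p was lower than reported with library size alone (0.0048 in edgeR) and in DESeq2 (0.0278). The adjusted p there was 0.144 and 0.499. Depth limits the miR-10 members most, since 3 of the 4 had at most 4 counts in any sample.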

Other observations

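The miRNAs with the smallest differences in profile from miR-196a-5p across the 6 samples were miR-181a-3p, miR-23b-3p and miR-339-5p. Their root mean square differences from it were 0.072, 0.0725 and 0.0738 on the log2 scale of TMM-normalized CPM, each miRNA centred on its own mean. The median over the 151 miRNAs with at least 100 CPM was 0.137. miR-196b-5p was not among the 3 nearest, although it shares the seed. The measure is also small for miRNAs that hardly vary, so it does not show that these moved with miR-196a-5p. In hsa_circ_0098181 replicate 2, for example, miR-23b-3p was at -0.072 and miR-196a-5p at 0.045. These values come from 6 libraries and describe them only.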
